A study of Homo sapiens with 12 samples.

Results

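The comparison set RNA from light polysomes against total RNA in wild-type MCF10A cells, a human mammary epithelial line that is generally described as non-tumorigenic, although the labels name breast cancer as its origin. It rests on 4 of the 12 arrays of the series, chosen by their titles. These are light polysome RNA (LMW) and total RNA (Total) of cells irradiated with 10 Gy, and LMW and Total of mock-treated cells. They form 2 matched pairs, 1 for each treatment, with 1 array for each combination and no replicate of any. All 4 groups carried the genotype WT. The sources used here do not say whether these cells held a control hairpin or received doxycycline, how long after irradiation they were harvested, or whether Total was taken before or after nuclei were removed. The other 8 arrays held heavy polysome RNA (HMW) of WT cells and the same 3 preparations of cells whose eIF4G1 was silenced with a short hairpin RNA switched on by doxycycline. Those arrays were used only where LMW against Total had to be set beside another fraction or genotype.

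Ribosomes that read an mRNA at the same moment form a polysome, and an mRNA with more ribosomes sediments deeper in a sucrose gradient. The labels give 1 to 3 ribosomes per mRNA for the LMW pool and 4 or more for the HMW pool, in both cases only for WT mock cells. RNA in the nucleus, in mitochondria or in particles without ribosomes belongs to neither pool by this definition, but may be part of total RNA. A long coding region has room for many ribosomes, and mRNAs of secreted and membrane proteins are read on ribosomes bound to the endoplasmic reticulum (ER). LMW minus Total therefore describes where a transcript was found and not how efficiently it was read.

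Values are log2 of the deposited array intensity, and a difference of 1 is 2-fold. The values of a fraction are given for irradiated and then for mock cells. A gene was kept where log2 was at least 6 in at least 4 of the 12 arrays, which left 10157 of 19775 genes. Values under 6 were treated as below the filter level and have no order among themselves. The number of arrays limits the precision. The fit across all genes took its spread from the trend over all genes and none from a gene's own 2 pairs, so its p-values measure how far a gene lies from that common spread. Array intensity is relative within an array. The 18 probe sets of the bacterial and phage control transcripts averaged 11.2 and 11.9 in LMW, against 10.5 and 10.8 in Total, so that they were 0.63 higher in LMW in the irradiated pair and 1.12 higher in the mock pair. When arrays were scaled to these controls, the median of all genes stood at -0.87 in place of 0.00. "Higher" and "lower" here mean relative to the median gene. The 3′ minus 5′ difference of ACTB probe sets, a sign of RNA integrity, was 1.51 and 1.27 in LMW, against 1.69 and 1.61 in Total. For GAPDH probe sets the same difference was 0.42 and 0.28 in LMW, against 0.21 and 0.31 in Total, so it was larger in LMW in the irradiated pair. The part of RNA integrity in the results was not tested.

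Light polysomes differed from Total in many transcripts. Of 10157 genes, 1421 were higher in LMW than in Total and 2275 were lower (limma, adjusted p under 0.05), which is 14.0% and 22.4% of the genes tested. The number at least 2-fold higher in both pairs was 726 (7.15%), and 1432 (14.1%) were at least 2-fold lower in both. All 1421 higher calls, and 2251 of the 2275 lower ones, had the same direction in both pairs. Among genes with log2 of at least 6 in all 4 arrays, the lowest was the fibronectin gene FN1 and the highest the immediate-early transcription factor gene FOS.

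FOS, a subunit of the AP-1 transcription factor whose mRNA is made in short bursts and decays fast, had 10.77 and 10.50 in LMW, against 7.29 and 7.21 in Total. Both LMW values stood more than 3 log2 units above both Total values, and the gene was chosen by that difference. The fitted difference over the 2 pairs was 3.38 ± 0.48 (SE from the common spread over all genes; limma adjusted p = 1.16e-10), or 10.4-fold. It was the only gene still called higher when arrays were scaled to the control transcripts. In HMW the FOS transcript had 10.09 and 9.44, between the other preparations.

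The other 9 of the 10 highest genes had differences from 2.22 to 2.60. UBBP1, a ubiquitin pseudogene, had 8.37 and 9.43 in LMW, against 6.31 and 6.30 in Total. Its probes may also read mRNA of the ubiquitin genes, and the 2.60 ± 0.48 (SE) is uncertain for that reason. MAP2K2, the MEK2 kinase of the MAP kinase cascade, had 10.67 and 11.38 in LMW, against 8.78 and 8.74 in Total, a difference of 2.26 (adjusted p = 3.11e-06). CBLC, an E3 ubiquitin ligase of the CBL family, had 8.36 and 9.56 in LMW, against 6.49 and 6.75 in Total. These genes were chosen by these same values, so a gap between LMW and Total follows from the choice. ACOX2, a peroxisomal oxidase of bile acid intermediates, differed by 2.29 and PIMREG, a mitotic protein, by 2.26. DYNC2I2, an intermediate chain of the ciliary dynein, and THOC6, part of the THO complex in mRNA export, each differed by 2.24. HGH1 differed by 2.24 as well, and SLC25A10, the mitochondrial dicarboxylate carrier, by 2.22. In these 9 genes the mock pair had the larger difference, as it did in 1268 of the 1421 genes called higher. HMW also stood above Total in each of the 9, by 1.25 for THOC6 to 2.00 for ACOX2. LMW minus HMW did not pass for CBLC at 0.43 or ACOX2 at 0.29. An excess over Total was thus not particular to LMW in these genes.

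The 10 lowest genes with log2 of at least 6 in all 4 arrays led with FN1, which encodes the matrix glycoprotein fibronectin. It had 9.01 and 8.67 in LMW, against 13.79 and 13.64 in Total. The difference of -4.88 ± 0.32 (SE; adjusted p = 9.92e-48) makes Total 29.4-fold brighter, and both pairs gave nearly the same value (-4.78 and -4.97). The FN1 probe set is of a type that may bind related transcripts. DSP, the desmosome protein desmoplakin, had 8.96 and 7.91 in LMW, against 12.43 and 12.31 in Total, a difference of -3.93. ITGAV, the alpha V integrin, had 7.52 and 7.41 in LMW, against 11.83 and 11.43 in Total, a difference of -4.16. The LMW and Total arrays were far apart in each of these genes, which were chosen by that difference.

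The rest of the 10 were surface, secreted or ER proteins with 1 exception. CD109, a membrane-anchored protease inhibitor, was lower at -4.56 and PTPRO, a receptor tyrosine phosphatase, at -4.17. LAMB1, a laminin chain of basement membranes, was lower at -4.13 and C3, the central complement component, at -4.09. PLOD2, the ER enzyme that hydroxylates collagen lysines, was lower at -4.08 and SEMA3C, a secreted guidance factor, at -3.93. The exception was ND2, a subunit of respiratory complex I that is encoded in mitochondrial DNA, at -4.01.

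**Figure D1:**
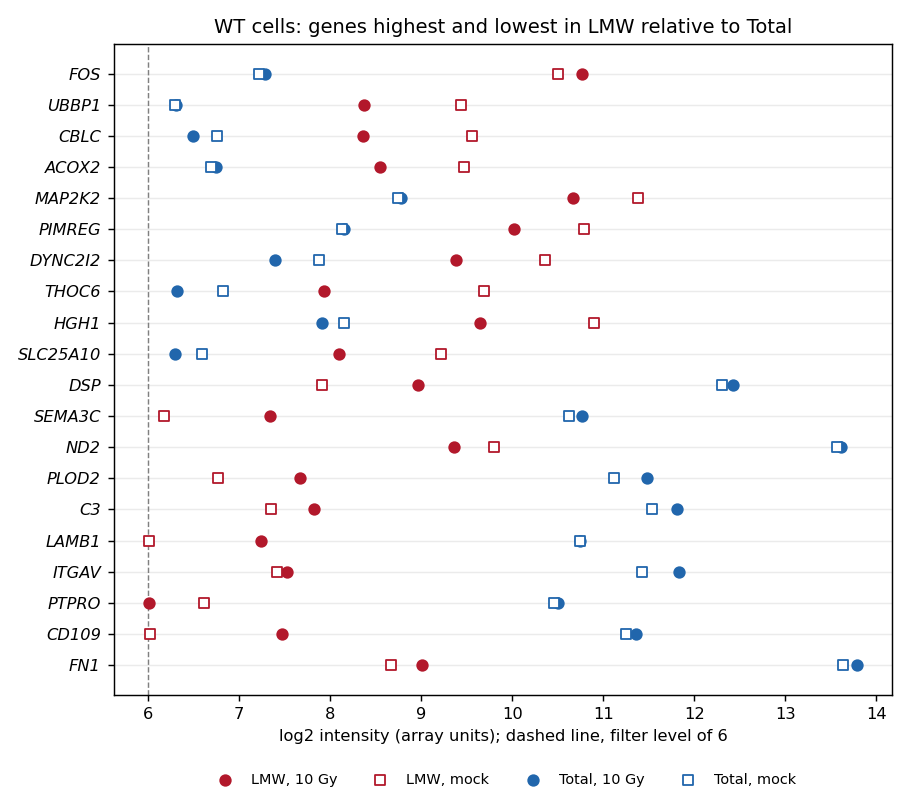
Log2 array intensity (x axis) of the 10 highest and 10 lowest genes in LMW relative to Total (rows), with 1 point for each WT array: LMW in red, Total in blue, filled for 10 Gy and open for mock. FOS has LMW values of 10.77 and 10.50 and Total values of 7.29 and 7.21, and at the other end FN1 has LMW values of 9.01 and 8.67 and Total values of 13.79 and 13.64.

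Some transcripts lay below the filter level in both arrays of a fraction, so their difference has a direction but no exact size. Among those below 6 in both LMW arrays, the nuclear long noncoding RNA MALAT1 had 4.45 and 4.19 in LMW, against 10.95 and 10.21 in Total. FTX, a long noncoding RNA of the X inactivation centre, had 3.39 and 3.18 in LMW, against 8.66 and 8.25 in Total. Neither reached 6 in HMW. The other 3 were ANKRD36B, GOLGA8A, which belongs to a golgin family of near-identical copies, and RRBP1, a ribosome-binding protein of the ER. RRBP1 had 4.75 and 5.19 in LMW, against 10.10 and 9.93 in Total, and 7.82 and 7.10 in HMW. For RRBP1 and GOLGA8A the probes may be shared with related transcripts, and without such probe sets RRBP1 stood at 0.036.

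At the opposite end, 5 genes below 6 in both Total arrays stood above it in LMW. RGS16, an attenuator of G protein signalling, had 7.81 and 7.44 in LMW, against 5.72 and 5.10 in Total. DUSP2, an inducible phosphatase of MAP kinases, had 7.02 and 8.14 in LMW, against 5.42 and 5.56 in Total. NOCT, nocturnin, had 6.72 and 7.79 in LMW, against 5.58 and 5.22 in Total. The others were the tRNA methyltransferase TRMT2B and the galactokinase GALK1. In all, 430 of the lower calls had both LMW values under 6, and 252 of the higher calls had both Total values under 6. Such genes could pass the filter only through other arrays, so their calls follow in part from the filter. MALAT1, FTX, ANKRD36B and GOLGA8A reached 6 in Total but in no LMW array of either genotype.

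EIF4G1, the gene silenced in the knockdown cells, encodes the scaffold of the cap-binding complex. In WT cells it had 8.53 and 8.89 in LMW, against 9.76 and 10.01 in Total, a difference of -1.17 ± 0.47 (SE; adjusted p = 0.038). HMW was the highest of the 3 preparations, with 10.97 and 11.50. In knockdown cells its level was 6.45 and 6.99 in LMW and 7.46 and 7.35 in Total, so the labelled genotypes and the transcript ran the same way.

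Matrix proteins and their integrin receptors were the list with the lowest median. Of 32 genes listed, 28 were on the array and 26 kept, and 23 of these 26 (88.5%) were lower in LMW, with none higher. Their median was -2.84, against 0.00 for all genes. The median was -2.80 in the irradiated pair and -2.82 in the mock pair, and 21 of the 26 were at least 2-fold lower in both. With arrays scaled to the control transcripts 23 were also lower, as were all 7 mitochondrially encoded transcripts. FBN2, an elastic-fibre fibrillin, had 6.55 and 5.595 in LMW, against 11.19 and 11.34 in Total, and with FN1 it was the lowest member. The basement membrane collagens COL4A1 and COL4A2 were lower at -4.26 and -3.53, the laminin chain LAMC1 at -3.58, and COL7A1, the anchoring fibril collagen, at -3.01. Among the integrins the differences ran from -4.16 for ITGAV through -4.13 for ITGA2, -2.67 for ITGB1 and -2.32 for ITGA6 to -1.19 for ITGA3. These collagen, laminin and integrin genes other than ITGAV were named after their values were seen. The members that did not pass were SPARC at -1.08, ITGA5 at -0.92 and ITGB5 at 0.11. ITGB5 had 9.26 and 10.03 in LMW, against 9.55 and 9.53 in Total, so its fractions overlapped.

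The machinery of the ER that makes such proteins had lower members and no higher one. Of 36 kept members, 17 (47.2%, against 22.4% of all genes) were lower in LMW, with a median of -0.997. SEC63, which works with the translocation channel, had 6.70 and 5.43 in LMW, against 9.77 and 9.79 in Total. HSP90B1, the ER chaperone GRP94, had 7.06 and 6.83 in LMW, against 10.16 and 10.20 in Total. At the upper end were SSR4, a small subunit of the translocon-associated complex, at 0.25 and SEC61B, the small beta subunit of the channel, at 0.22, and neither passed. Of the 14 golgins and coiled-coil tethers kept, which catch vesicles at the Golgi, 8 were lower (57.1%) and none higher (median -1.34). GOLGB1 and CCDC88A were below 6 in both LMW arrays, against 8.51 and 8.47 in Total for GOLGB1 and 7.65 and 7.43 in Total for CCDC88A. GCC1 at 0.63 and GOLGA2 at -0.72 did not pass.

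All 7 mitochondrially encoded transcripts kept were lower in LMW. These mRNAs are read by mitochondrial ribosomes inside the organelle. ND2 had 9.37 and 9.80 in LMW, against 13.61 and 13.57 in Total. COX1, a catalytic subunit of complex IV, had 12.41 and 12.80 in LMW, against 14.38 and 14.31 in Total, a difference of -1.74. The others were ND4 at -2.68, ATP6 at -2.26, COX2 at -2.23, ND6 at -2.19 and COX3, whose LMW values were both below 6, against 7.19 and 7.05 in Total. In HMW the same transcripts stood nearer to Total, with ND2 at 11.88 and 12.39 and COX1 at 14.16 and 14.45. The median of the 7 was -1.83 for LMW minus HMW, and all 7 were called lower there.

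Nuclear genes for mitochondrial proteins did not share that pattern. Of the 75 mitochondrial ribosomal protein genes kept, 28 (37.3%) were higher and 1 lower, with a median of 0.68. MRPL4 had 10.53 and 11.54 in LMW, against 8.79 and 8.999 in Total, and MRPS2 had 10.27 and 11.34 in LMW, against 8.61 and 8.90 in Total. MRPL32 was the lower one, with 10.52 and 9.80 in LMW, against 11.31 and 11.28 in Total. MRPS9, at -1.05, did not pass. Of the 68 nuclear-encoded respiratory chain genes kept, 17 were higher (25%) and 2 lower (2.94%; median 0.23). NDUFB7, a small subunit of complex I, was higher by 1.54 and ATP5F1D, a subunit of ATP synthase, by 1.48, while SDHA, the flavoprotein of complex II, was lower at -1.54. NDUFS1, the large iron-sulphur subunit of complex I, was at -1.07 (adjusted p = 0.059). Scaled to the control transcripts, the medians of the ribosomal and respiratory lists were -0.19 and -0.64, and no member of either stayed called higher.

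Immediate-early genes, which are switched on within minutes of a stimulus without new protein synthesis, had the highest median. Of 27 kept, 14 (51.9%) were higher in LMW and none was lower, with a median of 0.81 (0.91 in the irradiated and 0.79 in the mock pair). Beside FOS, DUSP2 was called higher, but with both Total values under 6 its difference has no exact size. IER2 at 2.09, JUND at 1.64, EGR1 at 1.61, ATF3 at 1.56, JUNB at 1.45, JUN at 1.18 and MYC at 0.70 were also higher and were named after their values were seen. KLF6, a zinc finger factor, had 11.84 and 9.66 in LMW, against 11.34 and 11.04 in Total. Its LMW values lay on either side of Total, and the fitted -0.44 did not pass. MCL1, a short-lived survival protein of the BCL2 family, at -0.29 did not pass either. The list's median was -0.06 when arrays were scaled to the control transcripts, and FOS alone stayed called higher.

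**Figure D2:**
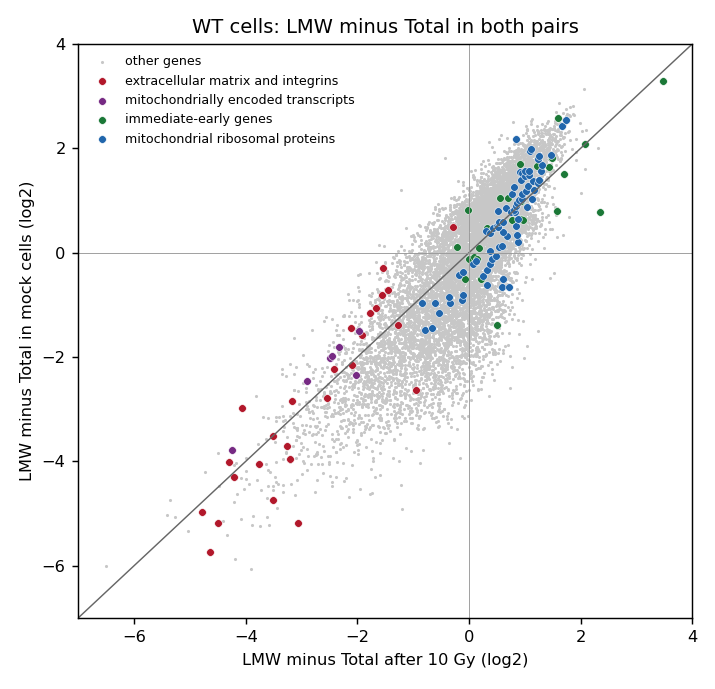
LMW minus Total on the log2 scale in irradiated cells (x axis) and mock cells (y axis), with 1 point for each gene kept, the diagonal marking equal values, and 4 gene lists in colour. Most matrix and integrin genes and all 7 mitochondrially encoded transcripts lie at the lower left, while immediate-early and mitochondrial ribosomal protein genes lie mostly at the upper right, with FOS farthest out at 3.48 and 3.29.

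Of 34 initiation factor genes kept, 6 were higher and 5 lower (median 0.30). These shares, 17.6% and 14.7%, lay near the 14.0% and 22.4% of all genes. EIF5B, the GTPase that joins the ribosomal subunits, had 6.57 and 4.45 in LMW, against 10.48 and 10.50 in Total. EIF3A, the largest subunit of the eIF3 complex, had 8.78 and 8.68 in LMW, against 11.37 and 11.38 in Total, a difference of -2.64. EIF6, which keeps large ribosomal subunits apart from small ones, had 12.25 and 12.80 in LMW, against 11.03 and 11.01 in Total, a difference of 1.51. EIF2B2, a subunit of the exchange factor for eIF2, was higher by 1.19. Of 18 aminoacyl-tRNA synthetases kept, which charge tRNAs, 7 were lower (38.9%) and 1 higher (5.56%; median -0.63). EPRS1, a synthetase for glutamate and proline in 1 long chain, had 9.13 and 7.88 in LMW, against 11.45 and 11.64 in Total, and 12.64 and 11.80 in HMW. LARS1 was lower at -2.15, FARSA was higher by 1.73, and YARS1 at 0.76 did not pass.

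Cytosolic ribosomal protein mRNAs lay near the median gene. Of 53 kept, 5 were higher (9.43%) and 7 lower (13.2%), and the median was -0.10. Elongation factors and other mRNAs known to carry a terminal oligopyrimidine (TOP) start had 2 higher (12.5%) and 7 lower (43.75%) of 16. Their median was -0.43. A TOP mRNA begins with a C followed by an unbroken run of pyrimidines, through which its translation is known to follow mTOR signalling. The starts of 7 of the 8 named members of both lists are shown, because these genes stood at the ends, and EEF1D is named only. They are written from 10 bases before to the bases after the RefSeq start on GRCh38.p14, 30 bases in all, with the pyrimidine run from the start in capitals.
RPS24 (lower, chr10:78033853-78033882, + strand): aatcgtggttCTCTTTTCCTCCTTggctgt
RPS12 (lower, chr6:132814559-132814588, + strand): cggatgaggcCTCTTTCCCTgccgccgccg
IPO7 (lower, chr11:9384642-9384671, + strand): gcttctctttCCTTTCgcgccggttgccgc
NAP1L1 (lower, chr12:76084666-76084695, - strand): gctcttgggtCTTTTTTagcgccatctgct
RPL27A (higher, chr11:8682782-8682811, + strand): gaaggccttcCTTTTTCgtctgggctgcca
RPLP2 (higher, chr11:809957-809986, + strand): tcggcgccttCCTTTTCCTCCCTgtcgcca
EIF3F (higher, chr11:7987327-7987356, + strand): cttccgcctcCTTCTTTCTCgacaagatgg

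The 7 starts shown carried the run, at both ends of the range. RPS24, with a run of 14 pyrimidines, had 13.33 and 12.70 in LMW, against 13.88 and 13.85 in Total, a difference of -0.85. RPL27A, with a run of 7, had 8.29 and 8.75 in LMW, against 7.17 and 7.35 in Total, a difference of 1.26. Both probe sets may be shared with related transcripts, of which ribosomal protein genes have many. RPS12 was lower at -0.73, but the median of its probe sets gave 0.14. IPO7, a nuclear import receptor, was lower at -2.01 and NAP1L1, a histone chaperone, at -1.34, while EIF3F, an eIF3 subunit, was higher by 0.56. RPLP2, a protein of the ribosomal stalk, was higher by 0.98, with 6.81 and 7.16 in LMW, against 5.86 and 6.16 in Total. EEF1D, part of the exchange factor of eEF1A, was higher by 0.44. A C at the annotated start followed by 4 pyrimidines, searched on the transcribed strand at that position only, was found in 4.07% of 35116 RefSeq promoters. It was found in 33 of the 47 ribosomal protein genes with a promoter entry. Across the 455 protein-coding genes with it the median was -0.01, against -0.03 for the 7791 without it.

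Of 42 mitotic spindle and kinetochore genes kept, 7 were higher (16.7%) and 16 lower (38.1%; median -0.26). CENPE, a very large kinetochore motor, had 4.57 and 3.63 in LMW, against 8.91 and 9.04 in Total, and 9.20 and 6.70 in HMW. CENPF, another very large kinetochore protein, had 6.91 and 5.50 in LMW, against 10.66 and 10.73 in Total. In contrast CENPM, a small centromere protein, had 9.20 and 10.14 in LMW, against 7.72 and 8.06 in Total, and SPC24, a small subunit of the NDC80 complex, was higher by 1.73. Of 46 replication genes, 10 were higher (21.7%) and 5 lower (10.9%; median 0.31). TOP2A, the DNA topoisomerase that untangles chromosomes, had 8.37 and 5.83 in LMW, against 10.52 and 10.50 in Total. POLA1, the catalytic chain of the primase-polymerase, was lower with LMW values under 6, while POLD2, a small subunit of polymerase delta, and GINS2, of the replicative helicase, were higher by 1.73 and 1.70.

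Of 23 homologous recombination and Fanconi genes kept, which repair DNA breaks and crosslinks, 4 were higher (17.4%) and 9 lower (39.1%; median -0.82). RAD50, the large ATPase of the complex that binds DNA ends, had 5.42 and 4.50 in LMW, against 9.05 and 9.20 in Total, and 9.42 and 7.15 in HMW. WRN, the helicase lost in Werner syndrome, had 5.42 and 5.07 in LMW, against 7.69 and 7.86 in Total. FANCG, a subunit of the Fanconi core complex, had 9.23 and 10.22 in LMW, against 7.87 and 7.92 in Total. MUS81, a nuclease for branched DNA, was higher by 1.61.

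The targets of p53, the factor activated by radiation, had 2 higher (7.69%) and 3 lower (11.5%) of 26 kept. The shares of all genes were 14.0% and 22.4%. AEN, a nuclease, had 9.48 and 10.02 in LMW, against 8.07 and 8.15 in Total, and PHLDA3, an inhibitor of AKT signalling, was higher by 1.19. FAS, the death receptor, had 8.32 and 6.81 in LMW, against 9.51 and 9.15 in Total. ZMAT3, an RNA-binding protein, had 10.41 and 6.91 in LMW, against 10.51 and 10.09 in Total, so its irradiated pair was level and its mock pair far apart. The list's median was 0.08 in the irradiated and -0.72 in the mock pair. Genes of the integrated stress response, many with upstream reading frames, had 5 higher (26.3%) and 4 lower (21.1%) of 19. The lower share lay near that of all genes. TRIB3 and DDIT4, which are induced by stress, were higher by 1.85 and 1.58, while SLC7A11, the cystine transporter, was lower at -2.57.

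Among the proteasome genes 9 of 32 were higher (28.1%) and 2 lower (6.25%; median 0.53). PSMC4 and ADRM1 were higher by 1.40 and 1.35, and PSMD1, the largest subunit, and PSMD12 were lower at -1.67 and -1.32. Glycolytic enzymes had 7 higher (41.2%) and none lower of 17 (median 0.39). GPI, the isomerase of the second step, was at 1.22 and ALDOC, an aldolase, at 1.15. When arrays were scaled to the control transcripts, these medians were -0.34 and -0.48. Chaperones had 2 higher and 6 lower of 17 (11.8% and 35.3%), and SR splicing factors 1 and 6 of 18 (5.56% and 33.3%). S100 and metallothionein genes had 1 and 5 of 20 (5% and 25%). Histones had 3 and 2 of 14 (21.4% and 14.3%), and keratins 1 and 1 of 10 (10% each). All genes had 14.0% and 22.4%, near the lower share of the S100 list.

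Noncoding RNAs were not all depleted. Of 7 RNAs kept from the list of nuclear noncoding RNAs, MALAT1, FTX, OIP5-AS1 and TUG1 were lower. The annotation used marks TUG1 as protein-coding. MEG3 was called higher with 6.43 and 6.28 in LMW, against 5.16 and 5.44 in Total. Its Total values lay under 6 in both genotypes, so its call follows in part from the filter and its difference has no exact size. OIP5-AS1 had 9.11 and 6.35 in LMW, against 10.23 and 10.10 in Total, so the size rested mainly on the mock pair. HCG18 at 0.29 and MIAT at 0.47 did not pass. Of 7 transcripts that host small nucleolar RNAs in their introns, 4 were lower and 1 higher. TAF1D, also marked as protein-coding, was below 6 in LMW. SNHG19 was lower at -2.50, SNHG32 at -1.34 and ZFAS1 at -1.02, and SNHG17 was higher by 1.19. EPB41L4A-AS1 at -0.76 and DANCR at -0.12 did not pass. The 211 long noncoding RNAs in all had a median of 0.29, with 21 higher (9.95%) and 36 lower (17.1%). How far this median rests on their array level was not tested.

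**Figure D3:**
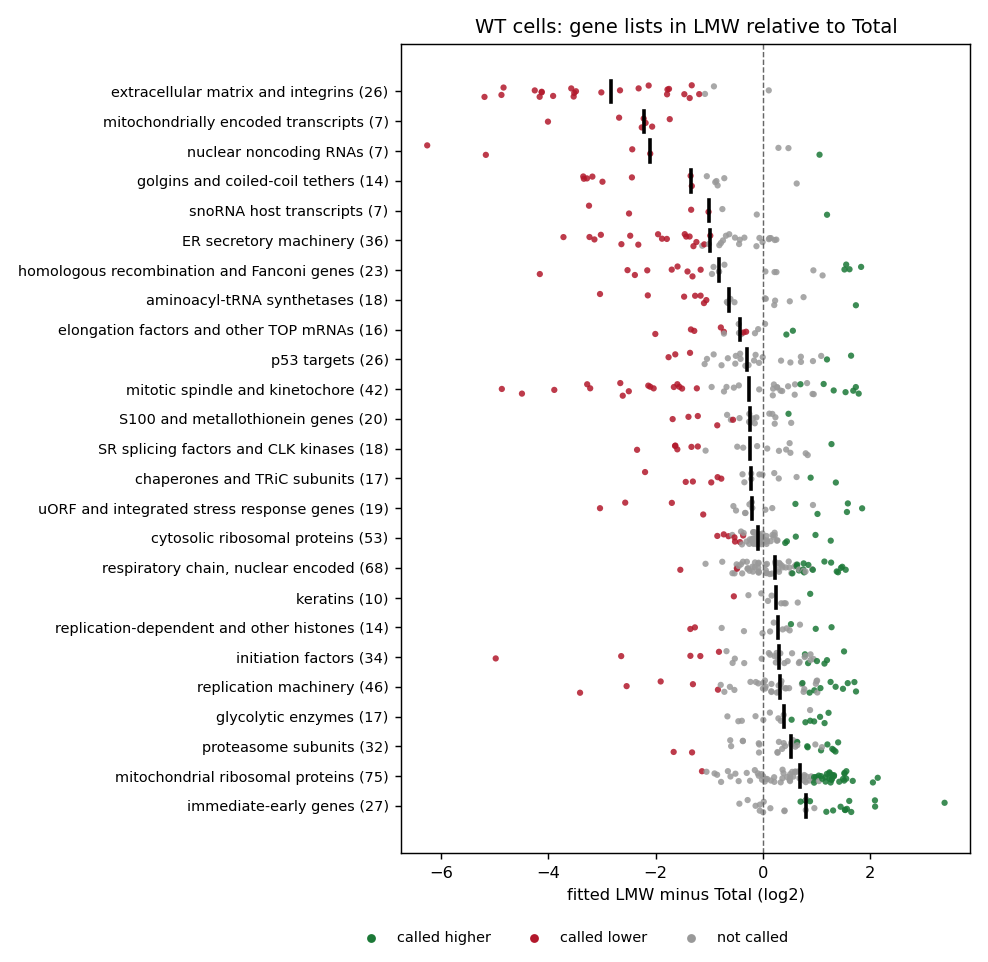
Fitted LMW minus Total on the log2 scale (x axis) for members of 25 gene lists (rows, number kept in brackets), with 1 point for each gene, green where called higher, red where called lower and grey otherwise. The thick line is each list's median, from -2.84 for matrix and integrin genes to 0.81 for immediate-early genes, and the dashed line is the median of all genes.

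The cell type labels were checked on marker lists. Of the basal mammary epithelial markers, 6 of the 11 listed were on the array and all 6 were kept. KRT5 and KRT14, the keratins that define basal cells, had 12.37 and 12.48, and 13.19 and 13.38, in Total. In LMW KRT14 was lower at -0.54, CDH1, CDH3 and ITGB4 were lower too, SFN was higher by 0.67, and KRT5 at 0.40 did not pass. The median of its probe sets put ITGB4 at 0.49, above 0. CDH1, which encodes E-cadherin, had 5.27 and 4.58 in LMW, against 9.31 and 9.11 in Total. Of luminal markers 3 of 7 were kept and none passed, and of fibroblast markers 2 of 6 were kept and 1 was called higher. That one was PDGFRB, with 6.66 and 6.17 in LMW, against 5.37 and 5.65 in Total. Its Total values lay under 6 in both genotypes, so its call follows in part from the filter and its difference has no exact size. None of the 4 leukocyte and endothelial markers on the array was kept.

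LMW minus Total varied with the span of a gene on the genome. Protein-coding genes that span less than 5 kb had a median of 0.61 (876 genes, 29.5% higher and 5.02% lower), against -0.94 for the 618 genes of 200 kb or more (3.07% higher and 46.9% lower). The medians of the bins between were 0.60, 0.41, -0.04, -0.62 and -0.77 in order of span. Both pairs went the same way, with 0.47 and 0.74 in the shortest bin and -0.63 and -1.14 in the longest. Spearman's rho between span and LMW minus Total was -0.44 across 9850 genes, which share arrays and are not independent. It was -0.48 for LMW minus HMW and -0.18 for HMW minus Total. Span includes introns and is not the length of the mRNA or of the coding region, which were not analysed here. The matrix list had a median span of 82.7 kb, the mitochondrial ribosomal proteins 8.67 kb and the immediate-early genes 4.92 kb, while the mitochondrially encoded transcripts, at 0.78 kb, were short and low. For promoter GC content rho was 0.09.

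**Figure D4:**
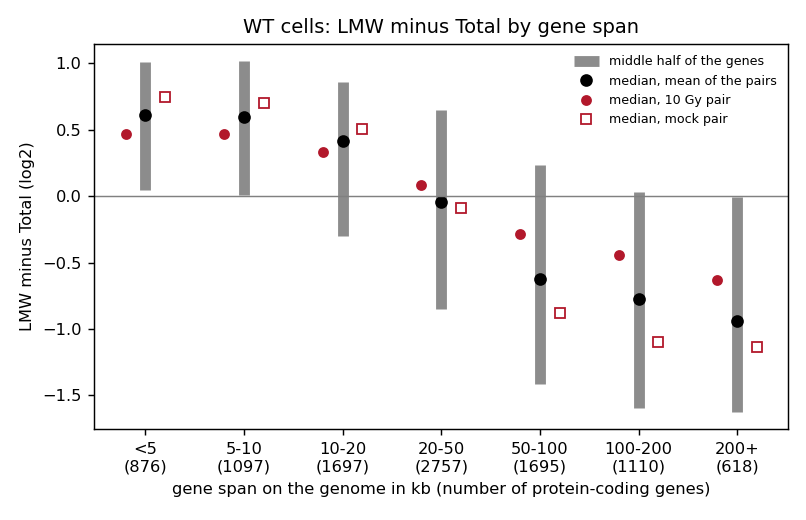
LMW minus Total on the log2 scale (y axis) in 7 bins of gene span (x axis, number of protein-coding genes in brackets). Black points are medians of the mean of both pairs, grey bars hold the middle of the genes from the 25th to the 75th percentile, and red points are medians in the irradiated (filled) and mock (open) pair, and the black medians go from 0.61 in the shortest bin to -0.94 in the longest.

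Families defined by a shared start of the gene symbol, with at least 30 genes kept, ranged from -0.91 for the CEP genes, which encode centrosomal proteins, to 0.76 for MRPL. None of 30 CEP genes was higher and 13 were lower (43.3%). The deubiquitinases named USP had 1 higher (2.63%) and 13 lower (34.2%) of 38, with a median of -0.68. The RAB GTPases had 9 higher (17.65%) and 8 lower (15.7%) of 51, with a median of 0.35. The 229 zinc finger genes named ZNF stood at -0.10 and the 198 solute carriers at 0.07.

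Set against heavy polysomes of the same cells, 1565 genes were higher in LMW (15.4%) and 2102 lower (20.7%; limma, adjusted p under 0.05). The LMW arrays enter both comparisons, so values are given side by side. Matrix and integrin genes had a median of -1.32 for LMW minus HMW and -2.84 for LMW minus Total, with 18 of 26 lower than in HMW. FN1 was the least different of the 10 lowest genes, at -0.80 for LMW minus HMW, with 9.78 and 9.50 in HMW. PTPRO, ND2 and DSP were lower than in HMW at -2.70, -2.56 and -2.54. Aminoacyl-tRNA synthetases had 15 of 18 lower than in HMW and none higher (median -1.23), although their median in HMW minus Total was 0.70. Chaperones had 14 of 17 lower and 1 higher (median -0.98). EIF4G1 stood at -2.52 and EPRS1 at -3.71. In the other direction, 45 of 68 respiratory chain genes and 36 of 75 mitochondrial ribosomal protein genes were higher in LMW than in HMW. FOS was higher by 0.87 (adjusted p = 9.73e-04). MALAT1 was below 6 in all 4 polysome arrays. When the treatment was left out as a block, no gene passed in either direction for LMW against HMW, with 151 higher and 1001 lower at an unadjusted p under 0.05.

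The irradiated and mock pairs differed in width. The SD over genes of LMW minus Total was 0.97 after 10 Gy and 1.42 in mock cells, and in knockdown cells 0.95 in each. In WT cells, 1643 genes (16.2%) had a difference at least 2-fold higher after 10 Gy than in mock cells and 393 (3.87%) at least 2-fold lower, against 20 and 21 genes in knockdown cells. This sets 1 pair against 1 pair and was not tested. The split depended on the scaling, with 1223 higher and 1021 lower after a loess correction, 1419 and 703 after median centring, and 3026 and 19 with the control transcripts. The 1643 genes had medians of 1.45 in LMW and 1.10 in HMW for 10 Gy minus mock, against -0.05 in Total. The 393 genes had medians of -1.06 in LMW, -0.49 in HMW and 0.09 in Total. Both groups were chosen by the LMW and Total arrays. Over all genes Total changed little (5th to 95th percentile, -0.35 to 0.34). A shift in LMW was therefore largely set by the choice, while HMW did not enter it. Library effects and irradiation cannot be told apart here.

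The genes with the largest such differences were PTP4A1, PTBP3, ZMAT3, RRM2B and EREG. PTP4A1, a membrane-bound phosphatase, had 10.83 in LMW after 10 Gy and 7.41 in mock LMW, and its pair differences were -0.17 and -3.94. RRM2B, the p53-induced subunit of ribonucleotide reductase, had 10.41 and 6.93 in LMW, against 9.43 and 8.95 in Total. EREG, an EGF receptor ligand, had 9.36 and 6.22 in LMW, against 8.60 and 8.40 in Total, and PTBP3, a splicing regulator, had 11.07 and 8.09 in LMW, against 10.71 and 10.84 in Total. For these 4 and ZMAT3 the irradiated LMW array stood at least 2.95 above the mock one after the change in Total was taken off. At the other end were H1-2, a linker histone, at -2.41, MOGS, the glucosidase that starts glycan trimming, at -1.77, PIGO, an enzyme of membrane anchor synthesis, at -1.65, C15orf39 at -1.62 and CTC1, a telomere maintenance protein, at -1.54. H1-2 had 6.29 and 8.22 in LMW, against 7.51 and 7.03 in Total.

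LMW minus Total was also compared between genotypes, as WT minus knockdown, with the interaction in a fit of 8 arrays. Only 12 genes were higher in WT (0.118%) and 217 lower (2.14%), and these counts moved widely with the processing. They fell to 0 and 11 without probe sets that may be shared between genes, where 498 were higher at an unadjusted p under 0.05. Of the 217, 9 were among the 26 matrix and integrin genes, 6 among 42 mitotic genes, 5 among 7 mitochondrially encoded transcripts and 5 among 36 ER genes. The median of the matrix list was -2.80 and -2.82 in WT and -1.61 and -1.24 in knockdown cells. For the mitochondrially encoded transcripts it was -2.46 and -2.03 in WT and -0.77 and -0.82 in knockdown cells. Of the 6 basal markers kept, 5 were among the 217.

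DCN, the matrix proteoglycan decorin, was among the genes lower in WT. It had 5.81 and 5.94 in LMW, against 10.54 and 10.15 in Total, in WT cells, and 9.10 and 9.19 in LMW, against 6.93 and 7.05 in Total, in knockdown cells. Its fractions stood in opposite order in the genotypes, and the interaction passed (limma adjusted p = 4.30e-03), but with both WT LMW values under 6 it has no exact size. ID2, an inhibitor of helix-loop-helix factors, was below 6 in all arrays of these fractions except LMW of knockdown cells, where it had 8.67 and 9.33. It could pass the filter only through those LMW arrays and HMW arrays. Its call as lower in WT thus follows in part from the filter, and its difference has no exact size. At the upper end NQO1, an antioxidant reductase, had 11.88 and 11.82 in LMW, against 10.65 and 10.64 in Total, in WT cells, and 11.71 and 11.78 in LMW, against 12.01 and 12.20 in Total, in knockdown cells. FTL, the ferritin light chain, had 12.07 and 12.69 in LMW, against 12.70 and 12.86 in Total, in WT cells, and 11.43 and 11.58 in LMW, against 13.40 and 13.56 in Total, in knockdown cells. Hairpin, doxycycline and loss of eIF4G1 cannot be told apart in this comparison.

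**Figure D5:**
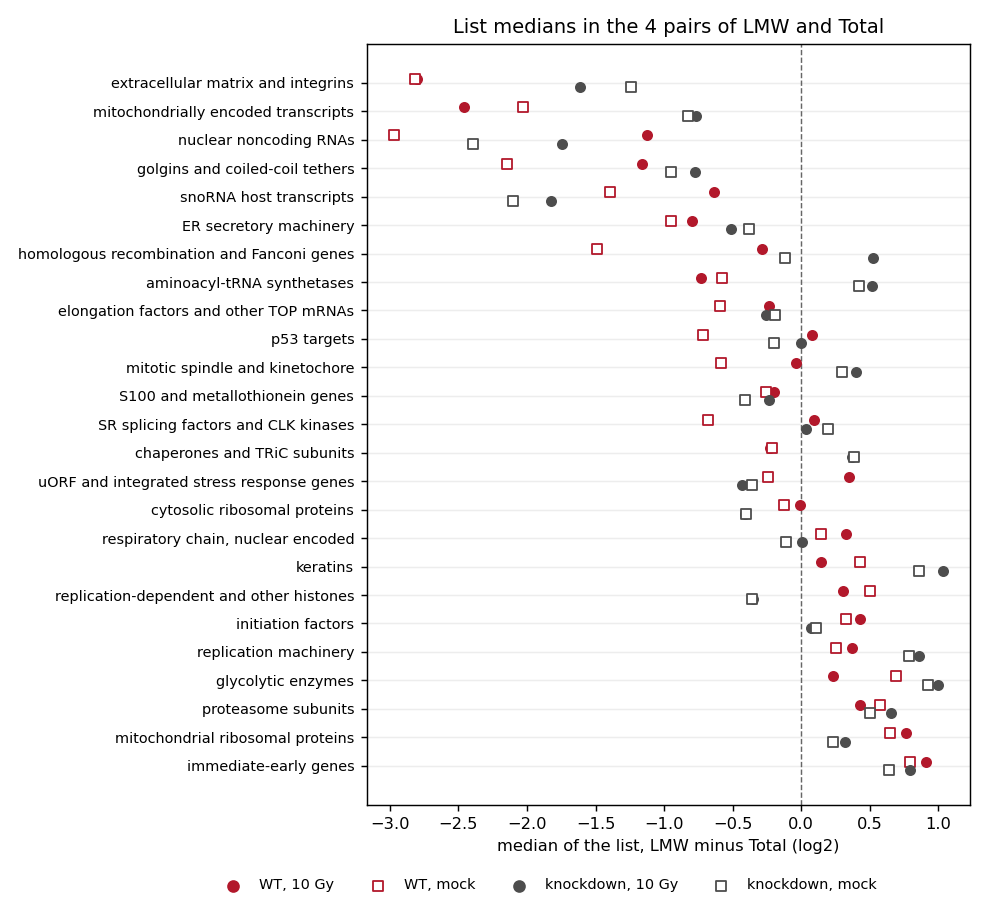
Median LMW minus Total on the log2 scale (x axis) of 25 gene lists (rows) in the 4 matched pairs, WT in red and knockdown in grey, filled for 10 Gy and open for mock. Matrix and integrin genes are at -2.80 and -2.82 in WT and at -1.61 and -1.24 in knockdown cells, and immediate-early genes at 0.91 and 0.79 in WT and at 0.79 and 0.64 in knockdown cells.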

How the data were processed

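RNA of MCF10A cells was hybridised to 12 oligonucleotide arrays, of which the 4 LMW and Total arrays of WT cells carry the main comparison. The authors deposited 1 linear intensity for each probe set, made with RMA per the submitters' processing notes. The sources used here give neither its version nor whether the 12 arrays were normalised jointly. RMA gives arrays that it treats together 1 distribution, so a change in the total amount of mRNA between fractions cannot be seen. Per the labels' protocols, lysates were cleared of nuclei and spun through sucrose gradients, and labelled with a 3′ in vitro transcription kit.

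Intensities were turned to log2. Of 54675 probe sets, 41097 had 1 gene symbol, 1801 several and 11777 were not listed in the annotation table used, and probe sets with several symbols were left out. Where several probe sets read a gene, the brightest on average was used, and the gene was kept at log2 of at least 6 in at least 4 arrays. LMW minus Total was fitted with limma 3.58.1 in R 4.3.3 (lmFit, eBayes with a trend, treatment as a block, 1 residual degree of freedom), with Benjamini-Hochberg adjustment at 0.05 over all 10157 genes. The labels give no replicate numbers, and the pairs come from the shared treatment in the titles. WT minus knockdown used the interaction over 8 arrays (2 residual degrees of freedom). Nothing says that samples came from separate cultures beyond their treatments, so p-values cover the spread between these arrays alone and may be technical. Genes named were the 10 highest and 10 lowest called in the same direction in both pairs with log2 of at least 6 in all 4 arrays, the 5 lowest with both LMW arrays under 6, the 5 highest with both Total arrays under 6, EIF4G1, the 2 highest and 2 lowest of a list or all of a list of up to 8 genes, and the 5 highest and 5 lowest of the other contrasts, with exceptions marked. Lists given by their counts alone have no member named. The rule left out symbols beginning LOC. The members, lists and tests were chosen with earlier results of these data known. Sequences came from RefSeq tables on GRCh38.p14. The fits were tested on simulated data. Alternatives were other filters, probe set choices, scalings, variance models, samples and pairs. Scaling to the control transcripts was chosen after seeing the data. The length of the encoded protein was not analysed here.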

Additional observations from a re-analysis of the deposited data

Results flagged for a closer look

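The 10 genes with the largest differences of LMW minus Total between genotypes, WT minus knockdown, were listed because the interaction itself passed (limma, adjusted p under 0.05, 8 arrays, 2 pairs in each genotype). Values under 6 enter several of them, so the sizes are those of the fit and their order is not firm. DCN had both WT LMW arrays under 6, ID2 all WT and both knockdown Total arrays, ZNF585A both WT Total and both knockdown LMW arrays, and LINC00460 both knockdown LMW arrays. The ID2 call follows in part from the filter, which kept this gene through knockdown LMW and HMW arrays. Below zero were DCN at -6.62 (adjusted p = 4.30e-03), SERPINB3, a squamous cell protease inhibitor, at -5.14 (0.035), TOP2A at -4.34 (0.045), ID2 at -4.24 (5.27e-03) and HSD17B2, a steroid dehydrogenase, at -3.99 (0.014). In DCN, SERPINB3, TOP2A and HSD17B2 both WT pairs were below 0 and both knockdown pairs above it. SERPINB3 had -2.20 and -4.32 in WT pairs and 2.64 and 1.12 in knockdown pairs, and HSD17B2 had -2.08 and -1.84 in WT pairs and 2.12 and 1.94 in knockdown pairs.

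Above zero were IFI6, an interferon-induced protein, at 2.39 (adjusted p = 0.035), ZNF585A at 2.19 (0.035), the long noncoding RNA LINC00460 at 2.04 (0.042), FTL at 1.57 (0.029) and NQO1 at 1.56 (0.029). All 5 lost the call without a variance trend (adjusted p from 0.056 to 0.073) and with the control transcripts (0.082 to 0.16). TOP2A and SERPINB3 lost it under both settings as well. IFI6 had 6.21 and 6.42 in LMW, against 6.98 and 6.55 in Total, in WT cells, and 6.71 and 6.50 in LMW, against 9.46 and 9.43 in Total, in knockdown cells. ZNF585A had pair differences of 0.08 and 0.18 in WT and -1.77 and -2.34 in knockdown cells. LINC00460 had -0.14 and -0.56 in WT and -2.38 and -2.40 in knockdown cells.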

How the results depend on the processing

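The labels give no replicate numbers, and the pairs rest on the treatment as a block. Without that block, 1483 genes were lower in LMW than in Total, and 0 higher and 0 lower for LMW against HMW (151 and 1001 at an unadjusted p under 0.05). Calls at least 2-fold numbered 474 higher without probe sets that may be shared, and 922 lower with the median of probe sets. The 1421 higher calls against Total became 3427 with no filter, 808 without shared probe sets, 2725 with 8 arrays and 3149 with 12. Scaled to the control transcripts, 1 was higher and 1428 lower, 34 at least 2-fold higher in both pairs and 3079 lower, and 1319 of the 2275 lower calls remained. For LMW against HMW, 798 were higher and 1321 lower without shared probe sets, 525 higher with the control transcripts and 890 higher without a variance trend. With 1 pair alone, higher calls against Total ranged from 3313 to 3968 and lower ones from 3062 to 4239, genes at least 2-fold from 881 to 2002 and from 1646 to 3026, and calls against HMW from 2543 to 3211 and from 2694 to 2930. The spread then came from the knockdown pairs.

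For WT minus knockdown, 32 higher and 327 lower passed with no filter, 28 and 409 with loess, 33 and 371 with median centring, 362 and 818 with 12 arrays, and 0 and 4 with the control transcripts. Without a trend 0 and 9 passed, and without shared probe sets 0 and 11. At an unadjusted p under 0.05 the higher ones at 0 numbered 76, 839 and 498. Leaving out 1 pair gave 2 to 2480 higher and 61 to 3109 lower. For 10 Gy minus mock, the control transcripts gave 3026 higher and 19 lower, and lower genes numbered 592 with no filter, 261 with the median of probe sets, 1021 with loess and 703 with median centring.

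Single genes changed sign as follows, and the cause was not tested. With the control transcripts SSR4 stood at -0.62, SEC61B at -0.65, YARS1 at -0.11, KRT5 at -0.47, SFN at -0.20, EIF3F at -0.31, EEF1D at -0.43, ITGB5 at -0.76, GCC1 at -0.24, HCG18 at -0.58, MIAT at -0.40, ID2 at -0.81, ZNF585A at -0.74 and CTC1 at -0.069. The median of probe sets gave SEC61B -0.29, YARS1 -0.059, ITGB4 0.49, RPS12 0.14, ITGB5 -0.056, KLF6 0.082 and MCL1 0.85. Without shared probe sets RRBP1 was at 0.036, ITGB5 at -1.31 and MCL1 at 0.40, and with loess H1-2 was at 0.18. With 1 pair alone, irradiated or mock, SSR4 was at -0.13 or 0.62, ITGB5 at -0.28 or 0.50, KLF6 at 0.50 or -1.38, PTBP3 at 0.36 or -2.75, RRM2B at 0.98 or -2.02, EREG at 0.77 or -2.19, H1-2 at -1.22 or 1.20, MOGS at -1.62 or 0.15 and PIGO at -1.53 or 0.12. Of the other comparisons of a named gene between settings, 1626 kept direction and side of the threshold for LMW minus Total, 102 lost the call and 53 gained one. For WT minus knockdown 104 kept it and 27 lost it. Of the list medians 183 moved by less than the SD between the pairs and 69 by more. The settings with 1 pair alone are in these counts. As the SD comes from the same pairs, they could hardly move by more. Protein length was not run. The arrays give no detection calls, so signal over background is known only by the filter level.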
